A study of Mus musculus with 6 samples.

Results

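Ctla2a, Ctla2b, 6 cathepsins (Ctsb, Ctsd, Ctsl, Ctss, Ctsw and Ctsz) and 2 cystatins (Cst3 and Cst7) were examined in resting CD4 T cells from mouse spleen. These 10 genes were taken by name from the array's own annotation. The group was chosen by the VIP-over-untreated ratios of these same arrays, in which a rise of Ctla2a was known, together with gene names, so their ratios between treatments are given as a description without a test. The array names 12 probes after 9 of the 10 genes, out of 41174 probes in all, and no probe carries the name Ctla2b. All 12 probes passed the filter on dim signals, and each was well above background on all 6 arrays in both treatments with no saturated spot. The 9 genes were among 19225 tested.

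The cells came from spleens of C57BL/6J mice, males and females aged 6 to 32 weeks, with 5 to 10 spleens pooled per sample and CD4 cells taken up on magnetic beads. One group was treated with vasoactive intestinal peptide (VIP), a neuropeptide whose receptors raise cyclic AMP in lymphocytes, and the other was left untreated. On each of the 6 arrays, a VIP-treated and an untreated sample of the same replicate number were hybridised together in 2 colours, with VIP-treated RNA in Cy5 on replicates 1, 3 and 5 and in Cy3 on replicates 2, 4 and 6. Neither the dose of VIP nor how long the cells were exposed is given in the sources used here. The labels number the arrays as biological replicates, and each SE combines the spread of a gene over its arrays with that of all genes, as limma's moderation does.

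Cathepsins are proteases of lysosomes and related granules. Most are papain-like cysteine proteases made as precursors, in which a propeptide covers the active site until it is removed. CTLA2 proteins resemble such a propeptide without the protease, and CTLA2 alpha inhibits cathepsin L-like enzymes. Cystatins are a separate family of inhibitors of the same proteases. CTLA2 transcripts are known from activated mouse T cells and mast cells.

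The CTLA2 genes are related neighbours, so the probe sequences bear on which transcript a signal can be assigned to. Their full transcripts were not compared here. The probe named Ctla2a lies on chromosome 13 from 61036380 to 61036740 in mm9 on the minus strand, and its 60 bases span 361 bases of genome. A pair of other probes, with names of transcripts only, are described in the files as CTLA-2-beta and lie on chromosome 13 from 60997410 to 60997469 and from 60997247 to 60997306, 39.0 and 39.1 kb from the Ctla2a probe. They fall outside the rule by name and are given beside Ctla2a because of that description. The first 22 bases of the Ctla2a probe equal bases 39 to 60 of the first CTLA-2-beta probe, which are in capitals in the sequences of the array's design, 5′ to 3′.
Ctla2a probe: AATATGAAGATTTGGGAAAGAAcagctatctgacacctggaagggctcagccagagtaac
CTLA-2-beta probe 1: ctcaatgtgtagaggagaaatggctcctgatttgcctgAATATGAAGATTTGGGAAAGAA
For the second CTLA-2-beta probe, the best placement without gaps had 22 of 50 bases equal to the Ctla2a probe (44.0%). Between the Ctla2a and Ctsl probes it had 26 of 58 (44.8%). Cross-hybridisation between both transcripts was not tested, and the 3 probes cannot be read as independent measures of separate genes.

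The promoters of both CTLA2 genes are alike. RefSeq (GRCm38.p6) gives 2 starts for Ctla2a and 1 for Ctla2b, and 255 of 286 aligned bases (89.2%) were equal between the Ctla2b promoter and that of the first Ctla2a start, with 8 gap positions. Each promoter holds TGACG, the core of the cyclic AMP response element, but neither holds the full element TGACGTCA. The printed stretches run from 15 bases before an AP-1 motif (TGANTCA) to 30 bases after this core, with both motifs in capitals. They are on the minus strand at chr13:60936641-60936769 for Ctla2a and chr13:60897485-60897605 for Ctla2b.
Ctla2a promoter: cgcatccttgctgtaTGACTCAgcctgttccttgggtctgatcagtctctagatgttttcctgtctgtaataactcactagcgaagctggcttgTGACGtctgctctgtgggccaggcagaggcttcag
Ctla2b promoter: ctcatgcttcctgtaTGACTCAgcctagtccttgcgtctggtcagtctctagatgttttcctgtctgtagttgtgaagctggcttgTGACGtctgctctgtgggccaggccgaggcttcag
The core begins 50 bases before the first Ctla2a start and 109 bases before the second, and 72 bases before the Ctla2b start. The AP-1 motif begins 129 bases before the first Ctla2a start and 143 bases before the Ctla2b start.

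Promoter sequence from 250 bases before to 50 bases after the start was available for 8 of the 10 genes, all but Ctsb and Ctsw. Both strands were searched for the full cyclic AMP response element (TGACGTCA), its core TGACG, the E-box CACGTG, the AP-1 motif TGANTCA and the NBRE motif AAAGGTCA of Nr4a receptors. The core lies within the full element, so a full element would count under both. Ctsd, the aspartic protease of lysosomes, had the core on the opposite strand, 43 bases before its start, and E-boxes 245 and 98 bases before it. Ctsl had an E-box 236 bases before its start, and Cst7 an AP-1 motif 6 bases before it. Ctss, Ctsz and Cst3 had none of the 5 motifs, and neither the full element nor the NBRE motif occurred in any of the 8. Across 32851 RefSeq promoters of the same length, 20.8% held the core, 7.81% the AP-1 motif, 7.15% the E-box, 1.79% the full element and 1.51% the NBRE motif. A match describes the letters in the window and says nothing of binding.

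**Figure D1:**
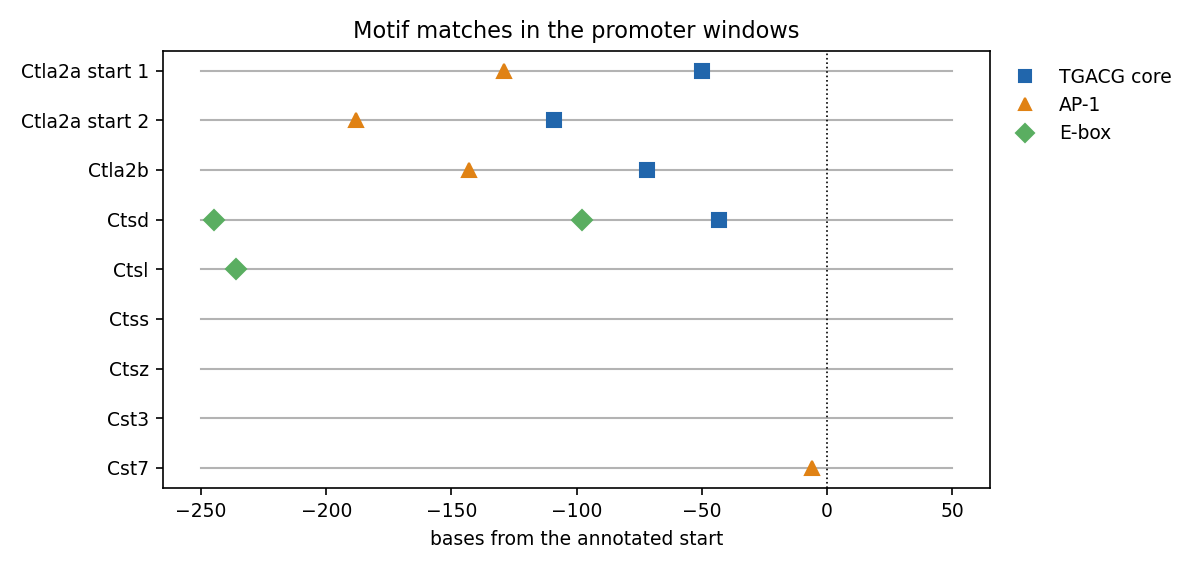
Motif matches in the promoter windows of the 8 genes with a RefSeq promoter, by distance in bases from the annotated start (dotted line), with both starts of Ctla2a. The CTLA2 promoters hold an AP-1 motif upstream of a TGACG core, and the windows of Ctss, Ctsz and Cst3 are empty.

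Ctla2a had the largest ratio of the 9 genes measured. Its normalized log2 intensity was 13.4 at the lowest, 14.3 at the median and 14.6 at the highest in VIP-treated cells, against 13.1, 13.5 and 14.0 in untreated cells. The ranges of both treatments overlap, but on each array the VIP-treated sample was the higher one. Its log2 ratio between VIP-treated and untreated cells was 0.71, 0.83, 1.18, 0.60, 0.70 and 0.27 on replicates 1 to 6. The fitted log2 ratio was 0.71 ± 0.079 (SE, n = 6 arrays), or 1.64-fold, and 13 of the 19225 genes had a larger rise. Before the dye difference was removed, replicate 3 stood highest and replicate 6 lowest among the arrays. Ratios ran higher where VIP was in Cy5, with means of 0.86 for those arrays and 0.57 for the others, and the fit removes this dye difference.

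Both CTLA-2-beta probes moved the same way. The first had log2 ratios of 0.70, 0.68, 1.03, 0.41, 0.65 and 0.20 on replicates 1 to 6, with a fitted ratio of 0.61 ± 0.068 (SE, n = 6). The second had 0.58, 0.47, 0.81, 0.48, 0.56 and 0.08, with a fitted ratio of 0.50 ± 0.061 (SE, n = 6). All 3 CTLA2 probes were thus higher with VIP on every array. With the dye difference removed, all 3 were lowest on replicate 6, and the highest values were close together, at 1.03 on replicate 3 and 0.98 on replicate 2 for Ctla2a and at 0.85 and 0.86 for the first CTLA-2-beta probe.

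Replicates 3 and 6 are the arrays whose VIP-treated and untreated pools differed in sex-linked transcripts. Xist, the transcript of the inactive X chromosome, had a log2 ratio of -6.12 on replicate 3 and 2.03 on replicate 6, and the mean of 4 Y-linked genes was 1.39 and -2.84. On the other 4 arrays Xist stayed between -0.08 and 0.34. With those 4 arrays alone the fitted log2 ratio of Ctla2a was 0.71 ± 0.055 (SE, n = 4), as large as with all 6. Replicates 3 and 6 differed in sex-linked transcripts in opposite directions. With the dye difference removed they had the highest and the lowest Ctla2a ratio, 1.03 and 0.42. Leaving out both together therefore cannot show whether the ratio depends on sex composition, which was not tested. By slide, each of which carried 1 array of each dye orientation, the Ctla2a ratio was 0.77, 0.89 and 0.49.

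**Figure D2:**
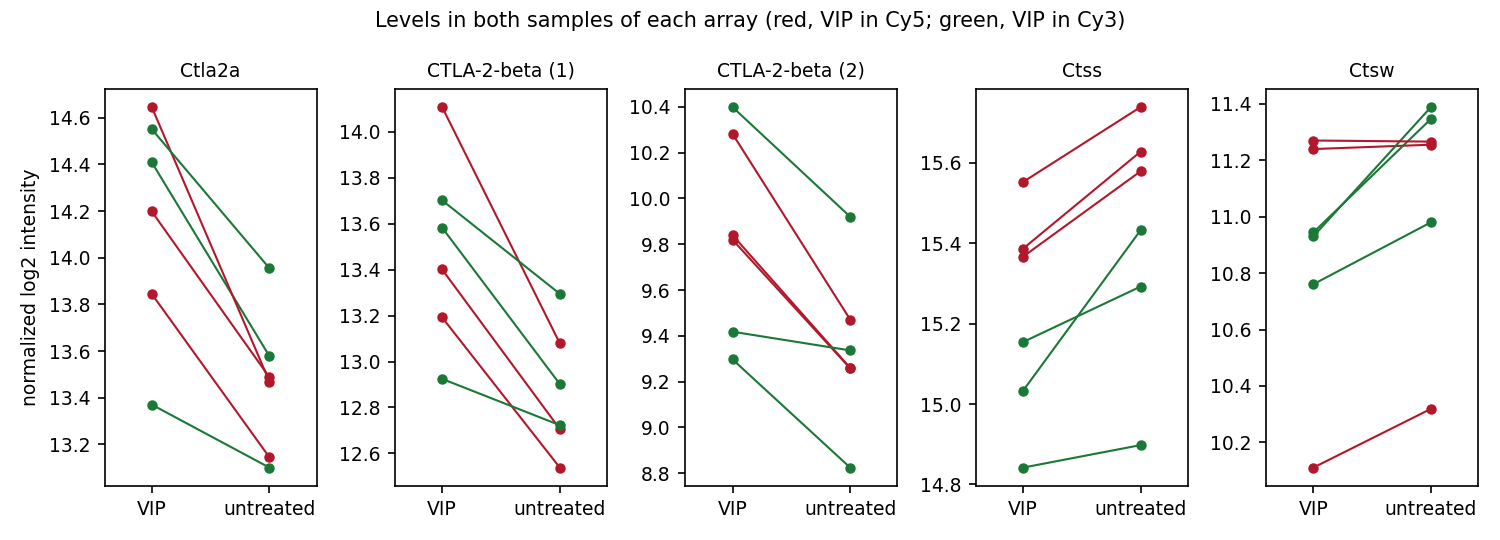
Normalized log2 intensity in the VIP-treated (left) and untreated (right) sample of each array, joined by a line, for Ctla2a, both CTLA-2-beta probes, Ctss and Ctsw, with a scale of its own per panel. The lines for the CTLA2 probes all run lower in untreated cells, and those for Ctss all run higher.

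Among the lymphocyte and antigen-presenting cell cathepsins, Ctsw and Ctss had negative ratios. Ctsw (cathepsin W, found in cytotoxic lymphocytes and NK cells) had a log2 intensity of 10.1 at the lowest, 10.9 at the median and 11.3 at the highest in VIP-treated cells, against 10.3, 11.3 and 11.4 in untreated cells. Its log2 ratio was -0.02, -0.46, -0.21, -0.40, 0.0039 and -0.22 on replicates 1 to 6, so 5 of 6 arrays were lower with VIP. The fitted ratio was -0.22 ± 0.049 (SE, n = 6), or 0.86-fold. The values on replicates 1 and 5, where VIP was in Cy5, were near 0. Ratios depended on the dye, with means of -0.07 where VIP was in Cy5 and -0.36 where it was in Cy3. With the dye difference removed, replicates 1 and 5 had -0.16 and -0.14, and all 6 arrays were negative.

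Ctss (cathepsin S, which cleaves the invariant chain of MHC class II in antigen-presenting cells) had a log2 intensity of 14.8, 15.3 and 15.6 at the lowest, median and highest in VIP-treated cells, against 14.9, 15.5 and 15.7 in untreated cells. Its log2 ratio was -0.24, -0.14, -0.19, -0.40, -0.21 and -0.06 on replicates 1 to 6. The ranges overlap, and the VIP-treated sample was lower on each of the 6 arrays. The fitted ratio was -0.21 ± 0.050 (SE, n = 6), or 0.87-fold, and hardly depended on the dye, with means of -0.21 where VIP was in Cy5 and -0.20 where it was in Cy3.

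Bead-selected spleen cells can hold other cell types, in which several of these genes are abundant. All 9 T cell markers, Cd4 among them, were well above background, and so were both CD8 markers, all 10 macrophage and monocyte markers, all 8 dendritic cell markers, 8 of 9 B cell markers (not Pax5) and 5 of 6 NK cell markers (not Klre1). Summed intensity of the 8 macrophage and monocyte markers measured on all arrays ran between 4401 and 10342 in VIP-treated cells and between 4638 and 9729 in untreated cells. For the 6 NK cell markers it ran between 3252 and 4037 in VIP-treated cells, against 3421 to 4560 in untreated cells. The median fitted log2 ratio was 0.01 for both of these lists, -0.05 for the B cell markers and -0.07 for the T cell markers. Single macrophage and monocyte markers went both ways, from -0.13 for Marco to 0.18 for Cd14. NK cell markers ran from -0.08 to 0.05. Thy1, a surface marker of T cells, was the only marker called in these lists and fell by 0.29 on the log2 scale (± 0.053 SE, n = 6, adjusted p = 0.0149 by limma). Cd3d and Cd3g, subunits of the T cell receptor complex, had ratios of -0.13 and -0.15, negative on 6 of 6 arrays. Neither passed the test (adjusted p = 0.116 and 0.103 by limma). Cd3e, another subunit of that complex, had 0.03. Of the remaining T cell markers, Cd247 and Lck each had -0.07, Cd28 0.0042, Cd4 0.01 and Cd5 0.08. The single CD8 marker measured on all arrays ran between 4726 and 8399 in VIP-treated cells and between 3572 and 7174 in untreated cells. These levels hold a dye difference. Its log2 ratio was -0.33, 0.45, -0.02, 0.38, -0.14 and 0.42 on replicates 1 to 6, negative where VIP was in Cy5 and positive where it was in Cy3. With the dye term, the fitted ratio was 0.13 for Cd8b1 and 0.05 for Cd8a (adjusted p = 0.206 and 0.769 by limma). The part of other cell types in the Ctss and Ctsw ratios was not tested, and fewer cells of a type cannot be told apart from less RNA per cell.

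Ctsb, a cathepsin with both endopeptidase and exopeptidase activity, was higher with VIP on each of the 6 arrays by small amounts. Its log2 ratio was 0.14, 0.14, 0.24, 0.01, 0.03 and 0.15 on replicates 1 to 6, with a fitted ratio of 0.12 ± 0.044 (SE, n = 6). A second, much dimmer Ctsb probe had a fitted ratio of -0.01 ± 0.047, positive on 3 arrays and negative on 3. The brighter probe's ratio was thus not seen at the second, whose mean log2 intensity in VIP-treated cells was 7.29 against 13.9. Whether so dim a probe could show so small a ratio was not tested.

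Ctsd, Ctsl and Ctsz stayed close to 0. The fitted log2 ratio was -0.09 ± 0.047 for Ctsd and -0.03 ± 0.048 for its second probe (SE, n = 6). Ctsl, the lysosomal enzyme that CTLA2 alpha inhibits, had a ratio of -0.04 ± 0.048 (SE, n = 6), with 3 arrays positive and 3 negative and values between -0.28 on replicate 3 and 0.07 on replicate 4. Its log2 intensity was 11.9, 12.3 and 12.9 at the lowest, median and highest in VIP-treated cells, against 12.2, 12.3 and 12.9 in untreated cells, so the medians of both treatments coincide. Ctsz, a carboxypeptidase, had a ratio of 0.01 ± 0.047 and -0.05 ± 0.045 at its second probe (SE, n = 6).

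Neither cystatin gene had a ratio beyond its error. Cst3 (cystatin C, a secreted inhibitor) had log2 ratios of 0.19, -0.15, 0.15, -0.11, 0.23 and -0.34 on replicates 1 to 6, which were positive on the 3 arrays with VIP in Cy5 and negative on the 3 with VIP in Cy3. With the dye term in the fit its ratio was -0.0055 ± 0.044 (SE, n = 6). Cst7 (cystatin F, an inhibitor found in granules and lysosomes of lymphoid and myeloid cells) had ratios of -0.09, -0.12, 0.21, 0.01, -0.07 and 0.34, with a fitted ratio of 0.05 ± 0.064 (SE, n = 6). Its largest values came from replicates 3 and 6, and with the 4 arrays of matched sex-linked transcripts the ratio was -0.07.

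**Figure D3:**
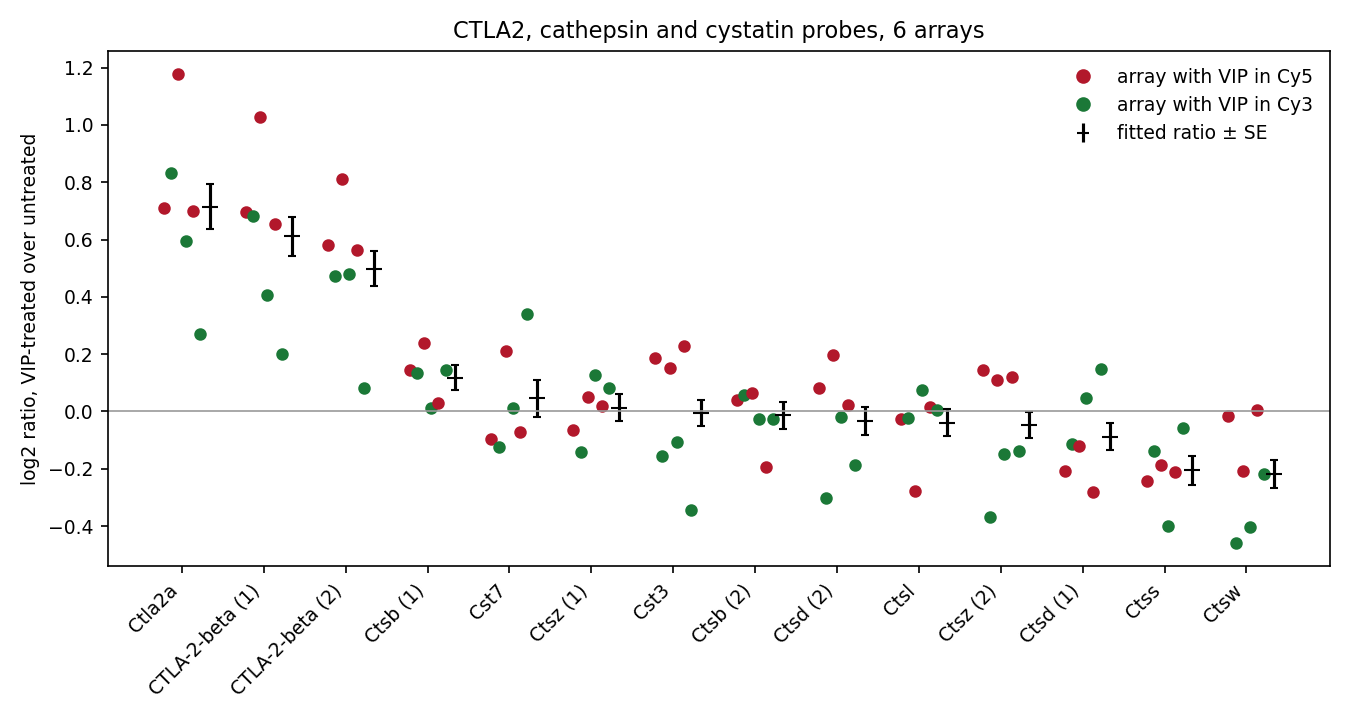
Log2 ratio of VIP-treated over untreated on each of the 6 arrays, in replicate order from left to right, for the 12 probes and both CTLA-2-beta probes, coloured by the dye of the VIP-treated RNA, with the fitted ratio ± SE in black. Probe 1 is the brighter probe of a gene. The CTLA2 probes lie between 0.08 and 1.18, and all other points lie between -0.46 and 0.34.

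Across the 9 genes, Ctla2a was called higher with VIP, Ctsw was called lower, and the other 7 were not called (limma, Benjamini-Hochberg adjusted p under 0.05). Over all 19225 genes, 3.08% were called in either direction, 1.72% higher and 1.37% lower. Since the genes were chosen with these ratios known, nothing is read from their count against that background. The median log2 ratio of the 9 genes was -0.0055, beside -0.0047 over all genes, and 4 of the 9 were positive. The median size of the ratio, regardless of sign, was 0.09 for the 9 genes and 0.05 for all genes. Ctsw was called under 5 of the 15 other settings that kept both samples of an array paired, and lost its call when any of replicates 1 to 5 was left out. Its negative sign held under all 15, several of which leave the fitted ratio itself unchanged. Ctla2a was called under 13 of the 15, all but the processed signals and the deposited value table, and Ctss under 2. The processed signals and the deposited table gave Ctla2a the same ratio, 0.72. All of these settings re-use the arrays by which the group was chosen, so the calls are a description.

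The wider protease system was described through 5 lists. In the list of 25 other cathepsins and lysosomal proteases, 16 were tested, 1 rose and none fell. The list median was -0.06 against -0.0047 for all genes. These 16 include Asah1, a lipid hydrolase, and Tpp2, a cytosolic peptidase, neither of them called. The gene that rose was Ctsf (cathepsin F, a papain-like protease), at 0.35 ± 0.046 on the log2 scale (SE, n = 6, adjusted p = 0.00292 by limma), higher with VIP on 6 of 6 arrays. Its mean log2 intensity was 9.22 in VIP-treated cells and 8.88 in untreated cells. Ctsf was not called with the scanner software's processed signals, with the deposited value table or with channels unpaired. Of the 16 genes, 6 had an unadjusted p under 0.05, as did 3212 of all 19225 genes (16.7%), the share to set beside this count and those of the other lists.

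The largest negative ratio of that list was that of Ctsc (cathepsin C, which activates granzymes), at -0.30 ± 0.091 (SE, n = 6, adjusted p = 0.111 by limma), lower on 5 of 6 arrays. Lgmn (legumain, an asparaginyl endopeptidase that processes cathepsins) had -0.20 ± 0.060 (SE, n = 6, adjusted p = 0.111 by limma). Both were chosen after their values were seen, and neither passed the test.

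Among 25 other inhibitors of papain-like proteases, 9 were tested and none was called by limma, none having an unadjusted p under 0.05. The list median was 0.04. The lowest p values were those of Stfa3, a stefin, at 0.11 ± 0.061 (adjusted p = 0.432 by limma), and Cstb, the stefin cystatin B, at 0.07 ± 0.044 (adjusted p = 0.478 by limma).

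Of 53 genes for lysosomal membrane proteins, hydrolases and their sorting, 52 were tested and none was called by limma, while 13 had an unadjusted p under 0.05. The list median was 0.03. Laptm4a, a lysosomal membrane protein, had a ratio of -0.33 ± 0.077 on the 5 arrays where its spot was measured (adjusted p = 0.0524 by limma), and its second probe had 0.05. The ratio was -0.19 without replicate 6, and without replicate 4 it was -0.48 and passed the test (adjusted p = 0.00944 by limma).

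Of the 11 genes of the invariant chain and class II loading, where cathepsins S and L act, all were tested and none was called by limma, with 2 at an unadjusted p under 0.05 and a median of -0.05. H2-DMb1, a subunit of the peptide-loading protein H2-M, had -0.13 ± 0.045 (adjusted p = 0.185 by limma), and H2-Oa, a subunit of its partner H2-O, had -0.10 ± 0.043 (adjusted p = 0.288 by limma). Of 13 cytotoxic granule genes, 12 were tested and none was called by limma, with 1 at an unadjusted p under 0.05 and a median of 0.02. Lyst, a regulator of lysosome size, had -0.12 ± 0.046 (adjusted p = 0.232 by limma), and Rab27a, a GTPase of granule release, had -0.18 ± 0.087 (adjusted p = 0.330 by limma) with 0.05 at its second probe.

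**Figure D4:**
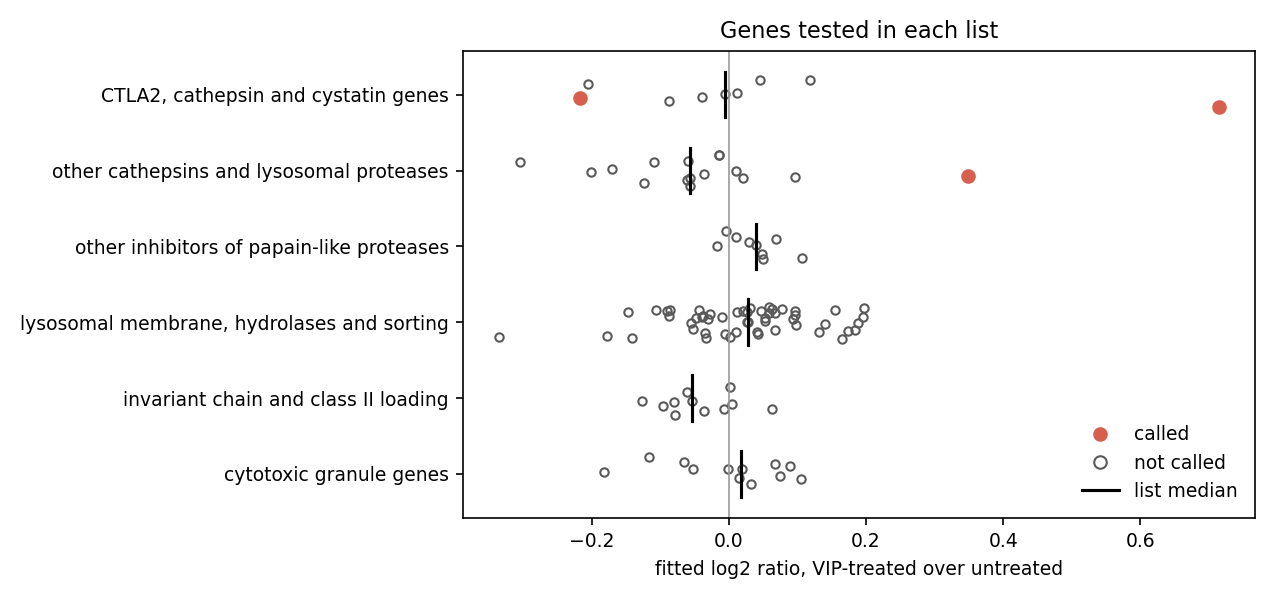
Fitted log2 ratio of VIP-treated over untreated for the tested genes of the CTLA2, cathepsin and cystatin group and of the 5 lists, with filled points for called genes and a bar at each median. Ctla2a at 0.71, Ctsf at 0.35 and Ctsw at -0.22 are the called genes, and the medians lie between -0.06 and 0.04.

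The chromosome 13 region that holds the CTLA2 probes also holds cathepsin genes. Between the second CTLA-2-beta probe and the Ctsl probe, 3.429 Mb from the Ctla2a probe, the array names 49 genes or transcripts, and 32 of them were tested. The CTLA2 probes were the 3 called there, all higher with VIP, and the other 28 beside Ctsl had ratios between -0.27 and 0.11. Of 9 cathepsin genes in the interval, 6 did not pass the filter on signal. Cts7 and Ctsm, cathepsins of the placenta, each had a ratio of -0.01 (± 0.076 and ± 0.043, SE, n = 6). The interval was chosen after the values were seen, and it is given as a description.

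**Figure D5:**
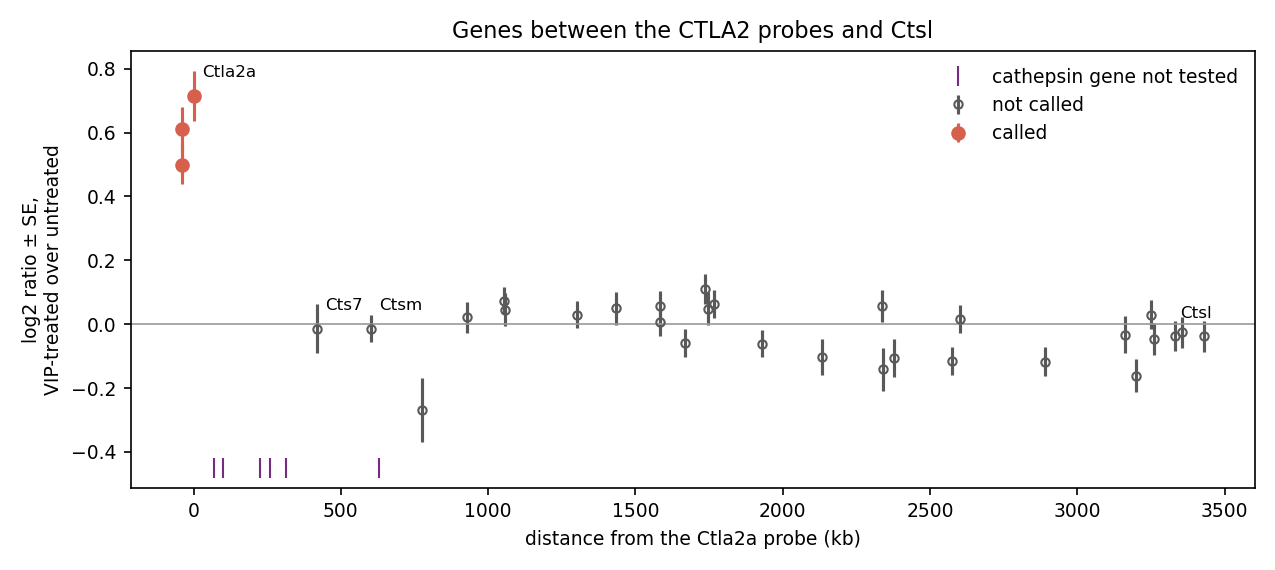
Fitted log2 ratio ± SE of VIP-treated over untreated for the 32 tested genes or transcripts between the CTLA2 probes and Ctsl on chromosome 13, by distance in kb from the Ctla2a probe, with purple ticks for the 6 cathepsin genes that were not tested. The CTLA2 probes lie above 0.4 and all other genes below 0.2.

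Genes measured on all 6 arrays were compared with Ctla2a, 12494 in all, leaving out clone, transcript, predicted and Riken names. The 5 with ratios nearest to those of Ctla2a were Fanci, Arhgap18, Eml1, Khdrbs3 and Epas1. Likeness was the root mean square difference of the dye-corrected log2 ratios over the 6 arrays. A gene of like size can thus rank near without the same course over the arrays. It was 0.116 for the first CTLA-2-beta probe and 0.241 for the second, which carry transcript names and were not ranked. It was 0.171 for Fanci, 0.190 for Arhgap18, 0.213 for Eml1, 0.235 for Khdrbs3 and 0.260 for Epas1. Their fitted log2 ratios were 0.71, 0.68, 0.77, 0.81 and 0.58, beside 0.71 for Ctla2a. With dye removed, Fanci and Epas1 were, like Ctla2a, lowest on replicate 6, at 0.35 and 0.24 against 0.42 for Ctla2a. Khdrbs3 was lowest on replicate 4, at 0.53, and Arhgap18 and Eml1 on replicate 5, at 0.54 and 0.74. Eml1 varied little, with a highest value of 0.81 against 1.03 for Ctla2a. No cathepsin or cystatin gene was among the 5. The measure weighs the size of the ratio, and the highest in the group other than Ctla2a was 0.12. Their absence therefore says nothing of shared regulation.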

How the data were processed

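Transcript abundance was measured on 6 2-colour arrays, and the authors' deposited files give intensity per spot; per the file headers, Agilent Feature Extraction 9.5.1.1 made them and probes are placed on mm9. The authors' deposited value table holds log10 ratios that equal the scanner software's own with the sign turned on replicates 2, 4 and 6, and it served as an alternative. Median mean signal was 83.6 to 108 in Cy3 and 148 to 235 in Cy5; the number of arrays limits precision.

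Intensities were corrected with normexp (offset 50) and loess in limma 3.58.1 (R 4.3.3), leaving out controls and spots flagged as outliers. A probe was kept if well above background on at least 3 arrays in the channel of either treatment and present on 2 or more arrays per dye orientation (the second condition was set after seeing the data); 27454 of 41174 were kept. The brightest probe stood for a gene, and 24844 probes were matched to RefSeq names. The fit was VIP-treated over untreated log2 ratio with a dye term and empirical Bayes moderation, paired within arrays, with Benjamini-Hochberg adjustment over all 19225 genes. Levels are log2 values per channel after loess and Aquantile. Sums of markers use linear values. Alternatives covered background correction, normalization, filter, dye term, slide block, probe averaging, single arrays left out and unpaired channels. The fit was tested on simulated data. The genes and lists were chosen with earlier results of these data known. The rule named all probes of the group and the called genes of each list or the 2 of lowest p. It also named the 5 genes with ratios nearest to Ctla2a, leaving out clone, predicted and Riken names. For 1 gene that the rule names, no result is reported here.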

Additional observations from a re-analysis of the deposited data

Results flagged for a closer look

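Cst7 in the untreated sample of replicate 2 had a normalized log2 intensity of 8.18, far below the other 5 untreated samples, which ran between 8.66 and 8.89. Its VIP-treated partner on the same array was also the lowest of its treatment, at 8.06, and the ratio on that array was -0.12. The gap took up 0.678 of the group's range, above Dixon's 95% critical value for 6 samples. It was the only 1 of 27 sets of values tested to pass, and chance flags about 1 in 20.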

How the results depend on the processing

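Each of the 9 fitted log2 ratios moved by less than 1 SD between arrays under all 15 alternatives that kept samples paired within arrays. Much of this stability is built in. The settings for the filter, the dye term and the slide block left all 9 ratios unchanged, since probes and dye balance stayed the same. Averaging probes changed only genes with more than 1 probe, and leaving out 1 array keeps most of the data. Ctla2a ran between 0.64 and 0.79, both from leaving out 1 array (replicates 3 and 6), and Ctsw and Ctss were negative throughout, while Ctsz, Cst3, Cst7 and Ctsl changed sign around 0 under some. Counts of calls depended more on the processing, and the cause was not tested. The 593 genes called over the array became 38 with processed signals (2687 at an unadjusted p under 0.05), 308 with median centring, 124 without a dye term, 41 with the deposited table, 369 on the 4 arrays of matched sex-linked transcripts (chosen after seeing the data), 4 with the 12 channels unpaired and no replicate block, and 254 to 498 with 1 array left out, the fewest without replicates 1, 5 and 6 (295, 254 and 364). Of the 9 genes, 2 were called, against 0 with processed signals and with the deposited table by limma (4 at an unadjusted p under 0.05 in both), 1 with median centring, without a dye term and on the 4 matched arrays, 3 without a filter on dim probes and with slide as a block (667 and 743 genes over the array), and 1 to 2 with 1 array left out; Ctsw was called only without replicate 6. Of the list genes, 1 was called, against 0 with processed signals and with the deposited table by limma (15 at an unadjusted p under 0.05 in both), 2 without a filter on dim probes and with slide as a block, and 1 to 4 with 1 array left out (4 without replicate 4). Signal over background limits the dim cathepsin and cystatin genes that were not tested.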
